A study of Mus musculus with 30 samples.

Results

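Untreated Abcb10-null MEL cells were compared with untreated WT MEL cells across all genes, which takes the 10 libraries of day 0 out of the 30 libraries of the series. MEL is a mouse erythroleukemia line (here the DS19 line) that stops short of red cell maturation and makes hemoglobin once it is exposed to DMSO. The 5 WT libraries came from the MEL line and the 5 Abcb10-null libraries from clone 12, a line grown from a single sorted cell after a lentivirus had brought in CRISPR/Cas9 against exon 1 of *Abcb10* together with GFP. Neither group had DMSO. The later groups of the series, with 2 or 5 days of 1.5% DMSO and 5 libraries per genotype and day, were used here only to ask which day 0 differences were of another size after treatment.

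All Abcb10-null libraries belong to 1 clone, so loss of Abcb10, the transduction and any difference that the founding cell already had cannot be told apart. A figure legend of the study has WT cells transduced with a control (mCherry) construct, while the labels here say only WT MEL cells. Whether these WT cultures carried it is not stated, so how far transduction differed between the groups is not known. The labels call the libraries biological replicates without saying how the cultures were kept apart, and the p-values measure the spread between these cultures. RNA was total RNA depleted of ribosomal and globin transcripts, so globin values are what the depletion left. In bulk RNA, fewer cells of a kind and less transcript per cell cannot be told apart.

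Abcb10 is an ATP-binding cassette protein of the inner mitochondrial membrane, and erythroid cells need it to make normal amounts of heme. Heme, iron and amino acid supply are tied to translation through kinases of eIF2-alpha, whose activity raises the transcription factor ATF4 and through it the genes of amino acid uptake, amino acid synthesis and tRNA charging. Interferon-stimulated genes are a separate program, turned on by STAT and IRF factors after interferon binds its receptor, or by IRF factors after RNA or DNA is sensed inside the cell.

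Library totals ran from 14364618 to 20157768 counts, and 12912 of the 54532 genes in the table had enough counts to be tested. Values are CPM, counts brought to a common library size with TMM scaling, and a gene is called where the adjusted p of edgeR's quasi-likelihood test was under 0.05. *Abcb10* (GRCm38 chromosome 8, bases 123952459 to 123983122, minus strand) had 121, 119, 111, 109 and 113 CPM in WT libraries 1 to 5 and 69.8, 73.8, 64.8, 75.5 and 72.9 CPM in Abcb10-null libraries 1 to 5. The null values were all below the WT values, yet transcripts remained. The log2 difference was -0.68 (SE 0.06, edgeR adjusted p = 1.16e-07), and the counts run over all exons, so they do not show whether the exon 1 lesion is in the RNA. Of the transporters of the same family, *Abcb8* (-0.05, adjusted p = 0.655) and *Abcb6* (-0.20, adjusted p = 0.0686) were not called.

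Genes around *Abcb10* were called less often than genes in general, though no test was made of that. Of 125 other genes within 1 Mb of its start, 37 were tested and 24.3% were called, 4 higher and 5 lower, against 36.0% of all genes tested, with a median log2 difference of -0.03. *Tcf25*, *Spire2*, *Sprtn* and *2810013P06Rik* were higher and *Rpl13*, *2810004N23Rik*, *Nup133*, *Gas8* and *Tubb3* lower, from -0.69 to 0.53 on the log2 scale. The adjacent *Taf5l* (140 ± 3.81 and 141 ± 5.87 CPM, adjusted p = 0.98) and *Urb2* (-0.03, adjusted p = 0.765) were not called. None of the 9 was called when the libraries of all days shared one fit, and *Sprtn*, *2810013P06Rik*, *Nup133* and *Tubb3* lost their calls in 3, 6, 4 and 6 of the 10 leave-one-out fits, each of which was made without 1 library.

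Differences were many and mostly small. Of the 12912 genes tested, 4642 (36.0%) passed the test, of which 2550 (19.7%) rose and 2092 (16.2%) fell in the null clone, while the median log2 difference over all genes was -0.0019. A further limit of 0.58 on the log2 scale, the one used by the study, left 926 genes (7.17%) higher and 572 (4.43%) lower. Rises of over 2-fold were called in 411 genes and falls of over 2-fold in 262, and 54 rose and 27 fell by more than 8-fold. The groups did not overlap in 2991 genes (23.2%). A single fit of all 30 libraries, called the 30-library fit here, adds the spread of the treated cultures to the error and called 1584 genes.

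Called genes lay on every chromosome. Median log2 differences of the 19 autosomes and X lay between -0.05 and 0.06, and the share of genes called lay between 31.9% on chromosome 7 and 39.1% on chromosome 15. The plot of all genes tested shows a narrow body of small differences around 0 and more genes far above it than far below.

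**Figure D1:**
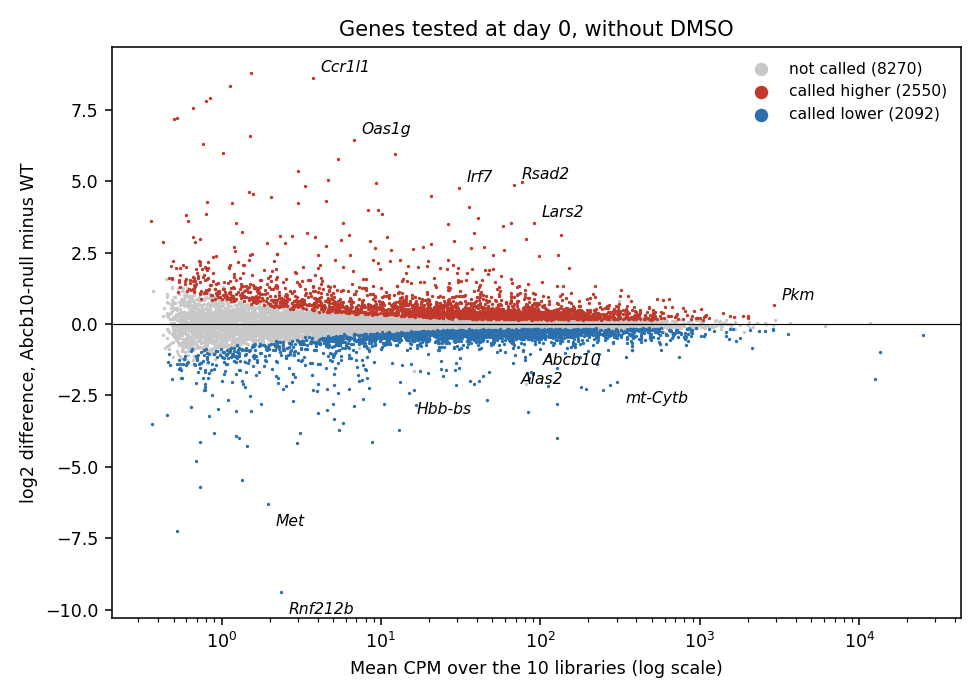
Log2 difference of Abcb10-null against WT at day 0 (y axis) against mean CPM over the 10 libraries (x axis, log scale) for the 12912 genes tested. Grey points were not called, red points were called higher (2550) and blue points lower (2092); labelled genes are among those named in the text, with *Abcb10* at -0.68. For genes with next to no counts in a group, such as *Ccr1l1*, the height depends on the prior count of the fit.

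Some genes were near on-off between the groups. In 12 genes every WT library had 3 counts or fewer while every Abcb10-null library had more and the null mean was at least 1 CPM, and in 6 genes it was the other way round. *Ccr1l1*, which encodes a chemokine receptor-like protein, had 0 to 1 counts in the WT libraries and 96 to 175 in the null libraries, a mean of 7.49 ± 1.08 CPM (SD, n = 5) and at least 40.4-fold above the floor of 3 counts per library. *Tlr4*, the lipopolysaccharide receptor of myeloid cells, went from 0 to 2 counts to 40 to 69 (at least 16.2-fold higher). *Trim30c*, *Rtp4*, *Ddx60* and *Epsti1*, known from interferon responses, were others, together with *Wfdc12* and *4930405D01Rik*, with bounds from 8.37-fold to 16.6-fold, and the other 4 genes had bounds from 5.46-fold to 8.17-fold.

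In the other direction *Rnf212b*, a relative of a meiotic recombination factor, had 63 to 88 counts in WT libraries and 0 in every null library, at least 30-fold lower. *Mid1*, a microtubule-associated ubiquitin ligase encoded on X, had 32 to 46 counts against 0 to 3 (at least 16.7-fold lower). *Rab10os*, *Gucy2f*, *Gm22865* and *Plcxd2* were the others, at least 6.68-fold to 9.1-fold lower.

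The 15 largest rises among protein-coding genes of at least 1 CPM were *Trim30c*, *Ccr1l1*, *Rtp4*, *Tlr4*, *Oas1g*, *Ddx60*, *Tgtp2*, *Bcas1*, *Trim34b*, *Oasl2*, *Trim30a*, *Plac8*, *Rsad2*, *Trim34a* and *Irf7*. Most of these are interferon-stimulated genes. *Bcas1* (0.19 ± 0.12 to 10.5 ± 1.48 CPM), best known from oligodendrocytes, and *Plac8* (0.57 ± 0.27 to 18 ± 1.01 CPM), a small protein of granulocytes and lymphocytes, are among the exceptions. The *Trim30*, *Trim34*, *Tgtp* and *Oas* genes have close relatives that can share reads, so the split between members is uncertain.

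The 15 largest falls were *Rnf212b*, *Met*, *Mid1*, *Ret*, *Gpm6b*, *Ulbp1*, *Enpep*, *Hnmt*, *Hsd3b1*, *Hbb-bs*, *Hbb-bt*, *Aldh1a1*, *Tmem56*, *mt-Cytb* and *mt-Nd2*. Both receptor tyrosine kinases among them were all but lost: *Met*, the hepatocyte growth factor receptor, went from 3.85 ± 0.83 to 0.04 ± 0.10 CPM, and *Ret*, the receptor of the GDNF family, from 5.68 ± 0.77 to 0.30 ± 0.21 CPM. *Gpm6b*, a membrane proteolipid, fell from 10.2 ± 1.01 to 0.76 ± 0.20 CPM, and *Hnmt*, which inactivates histamine, from 11.8 ± 2.09 to 1.61 ± 0.42 CPM. In each of these 15 genes the groups did not overlap, as the rule for naming them required.

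The 5 most abundant genes called higher past 0.58 were *Pkm*, *Plek*, *Ptbp3*, *Ppip5k2* and *Sh3bgrl*. *Plek*, a protein kinase C substrate of blood cells, rose from 532 ± 37 to 803 ± 45.7 CPM and *Ptbp3*, a splicing regulator of blood cells, from 448 ± 91.5 to 828 ± 36.7 CPM. The 5 most abundant called lower were *Rn7sk*, *Rpph1*, *mt-Rnr2*, *Hist2h2bb* and *Hspa8*, of which only the last, the constitutive cytosolic Hsp70 (1015 ± 51.5 to 675 ± 17.4 CPM), is a usual messenger RNA. *Rpph1*, the RNA of RNase P, lies over exons of *Ccnb1ip1* (73% of its bases), and *Hist2h2bb* over *Gm20628* (100%). The call of *mt-Rnr2*, a ribosomal RNA that the depletion targets, was missing from 7 of the 10 leave-one-out fits, and neither it nor *Hist2h2bb* nor *Hspa8* was called in the 30-library fit.

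Interferon-stimulated genes were higher almost without exception. Of 41 interferon-stimulated effector genes tested (51 listed), 38 rose and 0 fell, and in all 38 the lowest null value exceeded the highest WT value. The median log2 difference was 2.41, against -0.0019 over all genes. Of all genes tested, 19.7% were called higher, and in 23.2% the groups did not overlap, in either direction. Effectors near the floor in WT, such as *Rtp4* with 0 counts in every WT library, passed the count filter through the null group. For these only a rise could be seen, and their number was not taken. In the 4 lists for effectors, sensing and signalling, inducible GTPases and MHC class I, 101 genes were tested, and these held 55 of the 411 rises of over 2-fold and 23 of the 54 rises of over 8-fold. A further 2469 genes called higher were in none of the 4.

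Promoters of strongly raised genes are shown because interferon-stimulated genes are recognised by a short element, here GAAA, any 2 bases and GAAA again, on either strand and set in capitals. Each is 250 bases before and 50 after a start site in RefSeq's table for GRCm38.p6, read 5′ to 3′ on the gene's strand. They are *Isg15* (chr4:156200769-156201068, minus strand), *Rsad2* (chr12:26456403-26456702, minus), *Oas1g* (chr5:120887564-120887863, minus) and *Ifit1* (chr19:34640639-34640938, plus).
Isg15: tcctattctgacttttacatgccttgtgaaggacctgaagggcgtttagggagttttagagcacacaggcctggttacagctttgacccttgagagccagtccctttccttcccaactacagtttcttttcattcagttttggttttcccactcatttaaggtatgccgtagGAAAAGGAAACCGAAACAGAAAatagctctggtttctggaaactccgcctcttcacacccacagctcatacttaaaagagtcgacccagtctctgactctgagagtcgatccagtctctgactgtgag
Rsad2: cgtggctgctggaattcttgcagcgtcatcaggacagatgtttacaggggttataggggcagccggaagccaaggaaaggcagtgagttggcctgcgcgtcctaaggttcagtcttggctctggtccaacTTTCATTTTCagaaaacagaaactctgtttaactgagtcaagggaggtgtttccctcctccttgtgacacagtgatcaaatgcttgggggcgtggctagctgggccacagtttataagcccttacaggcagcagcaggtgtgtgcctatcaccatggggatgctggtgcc
Oas1g: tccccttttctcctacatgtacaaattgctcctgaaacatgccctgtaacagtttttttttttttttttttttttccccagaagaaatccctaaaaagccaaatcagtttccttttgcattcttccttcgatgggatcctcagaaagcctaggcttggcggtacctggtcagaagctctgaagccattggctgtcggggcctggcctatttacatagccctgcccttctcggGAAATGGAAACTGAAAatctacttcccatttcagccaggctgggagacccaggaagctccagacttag
Ifit1: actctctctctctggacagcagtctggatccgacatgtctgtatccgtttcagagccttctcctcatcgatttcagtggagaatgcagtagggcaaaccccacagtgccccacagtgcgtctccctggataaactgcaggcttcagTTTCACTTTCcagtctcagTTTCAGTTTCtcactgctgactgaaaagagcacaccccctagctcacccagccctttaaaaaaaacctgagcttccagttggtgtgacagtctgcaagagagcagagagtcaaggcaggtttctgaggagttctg
In *Isg15* 3 overlapping matches run together, in *Oas1g* 2 overlap, and *Ifit1* has 2 separate matches on the opposite strand. The element was in 1131 of 32851 promoters (3.44%). By gene, it was found in 331 of the 9040 genes tested that had an entry (3.66%), in 120 of 1949 called higher (6.16%) and in 34 of 1425 called lower (2.39%). Of the listed genes with an entry, 21 of 38 effectors, 10 of 12 inducible GTPases, 6 of 26 sensing and signalling genes and 5 of 21 MHC class I genes held it. The entries of *Irf7* and *Xaf1* did not, in this window and with these letters.

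*Rsad2*, which encodes the antiviral enzyme viperin, had 4.46, 4.31, 4.64, 4.02 and 4.93 CPM in the WT libraries and 130, 138, 128, 137 and 129 CPM in the null libraries. *Isg15*, a ubiquitin-like modifier, had 1.03, 1.55, 1.01, 1.48 and 1.56 CPM against 19.8, 20.8, 23, 17.2 and 13.3 CPM. Both sets are far apart, with the libraries of a group close to each other. The log2 differences were 4.88 (SE 0.08, edgeR adjusted p = 8.66e-19) and 3.84 (SE 0.18, adjusted p = 7.56e-12). *Trim30a*, a tripartite motif protein, rose from between 3.78 and 6.76 CPM in the WT libraries to 149 ± 15.2 CPM, *Xaf1*, an interferon-induced partner of XIAP, from 1.79 ± 0.59 to 39.5 ± 2.54, *Cmpk2*, the neighbour of *Rsad2*, from 9.92 ± 1.73 to 106 ± 3.71, and *Ifit1*, which binds uncapped or cap-0 RNA, from 1.3 ± 0.285 to 11.4 ± 0.582 CPM.

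Genes of interferon sensing and signalling were raised less evenly: 16 of 26 tested rose, 0 fell and the median was 0.34. *Irf7*, the transcription factor that amplifies type I interferon, had 2.67, 2.33, 2.45, 2.11 and 1.26 CPM in WT and 40.4, 60.1, 72, 56.8 and 68.2 CPM in null libraries, with no overlap (4.77, SE 0.175, adjusted p = 1.33e-13). *Usp18*, which removes ISG15 and dampens the receptor, rose by 4.11 on the log2 scale. The cytosolic RNA sensors *Ddx58* (RIG-I; 5.83 ± 0.57 to 75.7 ± 3.13 CPM) and *Ifih1* (MDA5; 26.8 ± 2.36 to 86.6 ± 4.79 CPM) rose as well. Of the factors that carry the receptor's signal to DNA, *Irf9* rose by 1.80 (adjusted p = 9e-12) and *Stat2* by 0.89 (adjusted p = 1.84e-05).

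The interferons themselves were not seen. Of 21 type I, II and III interferon genes in the table, 1 had any count, *Ifnb1*, and its highest count in a library was 2. The receptor chains *Ifnar1* (45.1 ± 3.73 and 49.9 ± 2.63 CPM, adjusted p = 0.127) and *Ifnar2* (37.9 ± 2.94 and 37.4 ± 2.5 CPM, adjusted p = 0.854) were not called. At this depth a transcript below about 3 counts per library, 0.145 to 0.212 CPM, is not detectable.

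Where 19.7% of all genes tested were called higher, 11 of 12 inducible GTPases tested (20 listed) rose, with a median log2 difference of 2.82. These are large GTP-binding proteins that act on membranes of intracellular pathogens. *Tgtp2* rose from 0.38 ± 0.19 to 24.2 ± 1.1 CPM, *Irgm1* from 16.9 ± 2.83 to 102 ± 5.68 CPM and *Gbp7* from 15.8 ± 2.28 to 84.9 ± 7.36 CPM. *Tgtp2* too passed the count filter through the null group. For members like it only a rise could be seen, and their number was not taken. Of 25 MHC class I presentation genes, 19 rose and 2 fell, with a median of 0.87. The class I genes *H2-T24* (31.6 ± 2.95 to 164 ± 10.5 CPM) and *H2-T23* (21.3 ± 1.95 to 80.1 ± 5.16 CPM), the light chain *B2m* (142 ± 10.4 to 266 ± 23.3 CPM), the peptide pump *Tap1* (2.29-fold) and the immunoproteasome subunit *Psmb9* (2.81-fold) rose, while the subunit *Psmb10* fell by 0.27 (adjusted p = 0.00638). *Eif2ak2*, the double-stranded RNA kinase PKR, which is both interferon-induced and a kinase of eIF2-alpha, rose from 72.5 ± 4.2 to 183 ± 14.1 CPM. The 30-library fit called 37, 11, 12 and 18 genes of the 4 lists higher.

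**Figure D2:**
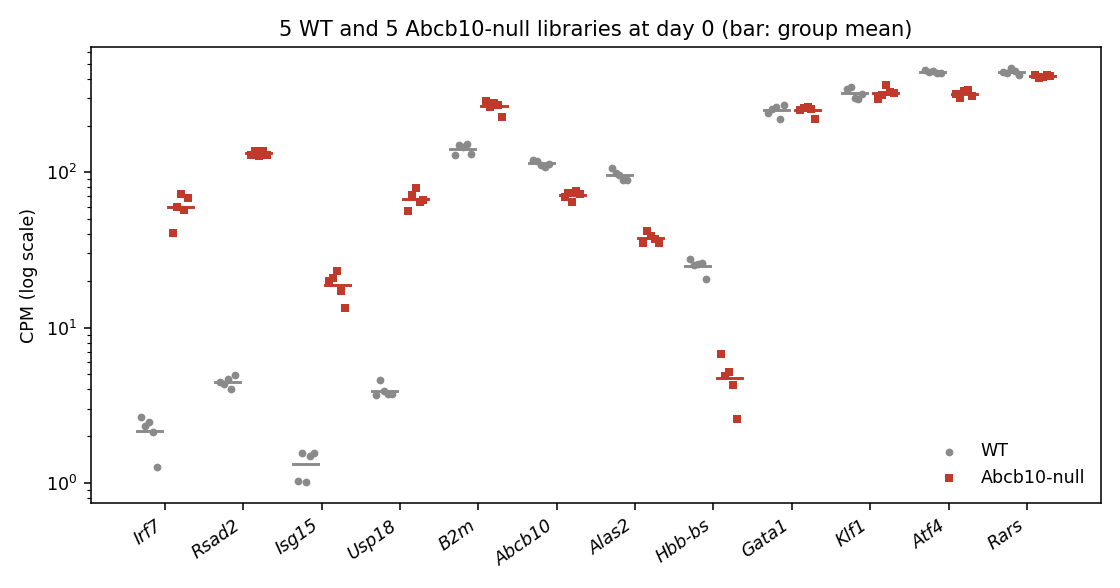
CPM (log scale) of 12 genes in each of the 5 WT (grey) and 5 Abcb10-null (red) libraries of day 0, with a bar at the group mean. *Irf7*, *Rsad2*, *Isg15*, *Usp18* and *B2m* are higher in every null library, *Hbb-bs*, *Alas2*, *Atf4* and *Abcb10* lower in every null library, and *Gata1*, *Klf1* and *Rars* were not called.

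Erythroid genes divided by class before any DMSO was added. All 4 globin genes tested were lower. *Hbb-bs*, the adult beta globin gene, had 27.7, 25.3, 25.7, 25.9 and 20.7 CPM in WT and 6.73, 4.84, 5.16, 4.27 and 2.58 CPM in null libraries, with no overlap, a log2 difference of -2.41 (SE 0.17, adjusted p = 2.36e-09). Its near-identical neighbour *Hbb-bt* fell from 26.7 ± 4.22 to 5.46 ± 1.79 CPM, and *Hba-a1* and *Hbq1b* fell by 3.21 and 2.31 on the log2 scale from 1.5 and 1.3 CPM. The libraries were depleted of globin RNA, and *Hba-a2*, *Hba-x* and *Hbb-bh2* had no count in any of them.

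Of the 9 enzymes of heme synthesis, 3 were lower and 3 higher, 66.7% called against 36.0% of all genes tested. *Alas2*, the erythroid form of the first and rate-limiting enzyme, had 107, 98.7, 95.6, 89.5 and 89.7 CPM in WT and 35.3, 41.8, 38.8, 37.4 and 35.3 CPM in null libraries. The groups were well apart, at -1.35 (SE 0.07, adjusted p = 4.62e-11). *Alas1*, the form used outside the red lineage, rose from 18.7 ± 1.14 to 25 ± 3.40 CPM.

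Red cell membrane genes were lower more often than higher, with 10 of 25 tested lower and 2 higher, a median of -0.16. These were 40% and 8%, against 16.2% and 19.7% of all genes tested. *Ank1* (ankyrin, -0.91), *Rhd* (-0.86), *Sptb* (beta spectrin, -0.83) and *Dmtn* (dematin, -0.76) fell and *Cd47*, the signal that protects cells from phagocytosis, rose by 0.63. Transcripts of some erythroid regulators did not follow, and protein and activity are not measured by these libraries. *Gata1* (251 ± 20.5 and 251 ± 17.5 CPM, adjusted p = 0.971), *Klf1* (324 ± 25.5 and 326 ± 25.2 CPM, adjusted p = 0.92) and the receptor *Epor* (217 ± 17.9 and 219 ± 21.5 CPM, adjusted p = 0.918) were not called, with differences of at most 0.01 and standard errors near 0.07.

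Of 18 erythroid transcription factors 5 rose and 2 fell, and the 38.9% called is close to the 36.0% of all genes. The 30-library fit called 2 higher and 1 lower. Those that changed included *Sox6*, which silences embryonic globin (8.37 ± 0.80 to 14.1 ± 1.39 CPM), the glucocorticoid receptor gene *Nr3c1* (69.2 ± 7.42 to 106 ± 10.8 CPM) and *E2f4* (21.1 ± 2.46 to 14.7 ± 1.92 CPM). Of 12 progenitor and leukemia factors, 5 rose and 3 fell. *Myb*, which keeps progenitors dividing, had 237, 257, 225, 249 and 237 CPM in WT and 373, 358, 334, 396 and 383 CPM in null libraries (0.61, adjusted p = 2.82e-07). *Meis1* rose by 0.62, whereas *Id1* (-1.05), *Lyl1* (-0.50) and *Myc* (-0.39) fell. *Spi1*, the ETS factor whose activation underlies many erythroleukemias of this kind, was not called (69.4 ± 9.76 and 72.9 ± 6.75 CPM, adjusted p = 0.575). *Sox6*, *Myb* and *Ank1* were not called in the 30-library fit.

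Iron genes moved little. Of 22 tested, 6 rose and 5 fell, all by less than 0.5 on the log2 scale. The share called was 50%, against 36.0% of all genes tested. *Tfrc*, the transferrin receptor, averaged 969 ± 137 CPM in WT and 1151 ± 71 in null cells (0.25, adjusted p = 0.0202), a call lost without WT library 1, 2 or 5. The iron exporter *Slc40a1* rose by 0.44 and *Ncoa4*, which brings ferritin to lysosomes, by 0.42. The ferritin light chain *Ftl1* (-0.34) and the mitochondrial carriers *Slc25a38* (glycine, -0.43) and *Slc25a37* (iron, -0.31) fell, as did *Hmox1*, the enzyme that breaks heme down (44.3 ± 3.5 to 36.1 ± 1.04 CPM, adjusted p = 0.00286). Of these only *Slc40a1* was called in the 30-library fit. In the signalling chain of the erythropoietin receptor *Jak2* rose from 272 ± 17 to 383 ± 26.9 CPM and *Stat5a* from 79.3 ± 8.47 to 105 ± 6.22 CPM.

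The ATF4 pathway was lower at day 0. Of 39 pathway genes tested, 24 fell (16.2% of all genes fell) and 3 rose, and the median log2 difference was -0.37. *Atf4* itself had 457, 445, 452, 435 and 440 CPM in WT and 318, 301, 335, 338 and 310 CPM in null libraries. All null libraries lay below all WT libraries, by -0.48 (SE 0.05, adjusted p = 1.44e-06). *Ddit3*, which encodes CHOP, fell from 65.2 ± 1.66 to 50.2 ± 2.23 CPM and *Trib3*, a pseudokinase that restrains ATF4, from 60.4 ± 5.61 to 40 ± 2.15 CPM. The amino acid transporter genes *Slc7a5* (36.9 ± 6.54 to 20.9 ± 1.61 CPM) and *Slc7a1* (62.4 ± 10.9 to 38.4 ± 2.68 CPM) fell as well, as did *Pck2*, the mitochondrial phosphoenolpyruvate carboxykinase, by 0.65.

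Not every target moved with them. *Chac1*, a glutathione-degrading enzyme and sensitive ATF4 target (7.37 ± 1.28 and 6.02 ± 1.18 CPM, adjusted p = 0.171), and *Slc7a11*, the cystine transporter (48.3 ± 4.61 and 45.6 ± 5.28 CPM, adjusted p = 0.479), were not called. *Ddit4*, an inhibitor of mTORC1, rose from 72.2 ± 5.37 to 102 ± 5.77 CPM and *Stc2* by 0.24. DESeq2 also called 24 genes of the list lower, but in the 30-library fit 2 were called lower, *Slc7a1* and *Pck2*, while *Atf4*, *Ddit3*, *Trib3* and *Slc7a5* were not.

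Promoters of *Trib3* (chr2:152344011-152344310, minus strand) and *Asns* (chr6:7693160-7693459, minus strand), the asparagine synthetase gene, show the element of ATF4 and its CEBP partners, written TGATGNAA on either strand and in capitals.
Trib3: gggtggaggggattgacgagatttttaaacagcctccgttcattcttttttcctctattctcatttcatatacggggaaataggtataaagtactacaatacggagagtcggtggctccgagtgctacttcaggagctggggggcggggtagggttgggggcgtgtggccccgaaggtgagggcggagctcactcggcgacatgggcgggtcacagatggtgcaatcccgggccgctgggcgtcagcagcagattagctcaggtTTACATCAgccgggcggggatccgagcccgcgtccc
Asns: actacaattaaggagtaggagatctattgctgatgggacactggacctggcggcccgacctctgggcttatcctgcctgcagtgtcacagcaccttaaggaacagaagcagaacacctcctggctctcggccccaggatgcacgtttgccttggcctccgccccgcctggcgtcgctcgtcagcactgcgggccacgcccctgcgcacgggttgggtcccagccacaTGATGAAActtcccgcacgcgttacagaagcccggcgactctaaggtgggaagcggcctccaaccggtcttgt
It was in 1304 of 32851 promoters (3.97%), in 235 of the 9040 genes tested that had an entry (2.6%), in 11 of the 33 pathway genes, in 41 of 1425 genes called lower (2.88%) and in 57 of 1949 called higher (2.92%). The entries of *Atf4* and *Slc7a1* did not hold it in this window. Those of *Chac1* and *Slc7a11*, which were not called, held 1 and 2 matches. *Asns* is shown for its element alone, and its difference is not given here.

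Of 23 cytosolic aminoacyl-tRNA synthetases, 10 fell and 1 rose, 47.8% called against 36.0% of all genes tested. *Iars* (isoleucine) went from 209 ± 18.8 to 121 ± 13.6 CPM, *Cars* (cysteine) from 76.3 ± 3.51 to 51.3 ± 3.8 CPM, and *Qars* (glutamine) rose from 242 ± 4.77 to 297 ± 10 CPM. *Rars*, which charges arginine, had 441, 440, 470, 452 and 423 CPM in WT and 423, 408, 409, 421 and 418 CPM in null libraries. The null libraries lay just below the WT libraries, the nearest of them equal after rounding, and the difference of -0.10 was not called (adjusted p = 0.141). Of 29 amino acid transporters, 7 fell and 3 rose, 34.5% called against 36.0% of all genes, with *Slc38a5* (54.3 ± 5.59 to 30.7 ± 4.27 CPM) and *Slc1a5* (98.9 ± 6.67 to 68.2 ± 8.31 CPM), both carriers of glutamine, among those that fell. In the 30-library fit 1 synthetase and 2 transporters were called lower, and *Cars*, *Qars* and *Slc1a5* were not called.

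Enzymes of arginine and proline went both ways, 9 of 28 higher and 5 lower, 50% called against 36.0% of all genes tested. *Asl*, which releases arginine from argininosuccinate, rose from 21.7 ± 1.99 to 28.6 ± 3.14 CPM (0.39, adjusted p = 0.00312). *Ass1*, the enzyme before it, was low in both groups (4.64 ± 1.12 and 3.58 ± 0.79 CPM) and not called (adjusted p = 0.175). *Oat* rose by 0.41, and *Pycrl*, *Aldh18a1*, *Got1* and *Prmt1* fell by 0.57, 0.47, 0.45 and 0.44. *Odc1*, which makes the first polyamine from ornithine, fell from 699 ± 45.2 to 427 ± 33.4 CPM, with no overlap (adjusted p = 9.27e-08), and *Sat1*, which starts polyamine breakdown, rose from 146 ± 10.7 to 192 ± 18.6 CPM. *Aldh18a1*, *Got1* and *Sat1* were not called in the 30-library fit.

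Genes for making ribosomes and for the respiratory chain were lower in many members, mostly by small amounts. Of 81 cytosolic ribosomal protein genes 50 fell (median -0.22), of 78 mitochondrial ribosomal protein genes 37 (median -0.18), of 42 ribosome biogenesis factors 21 (median -0.20), of 14 small nucleolar RNA host genes 9 (median -0.31) and of 79 nuclear-encoded respiratory chain subunits 44 (median -0.21). Rises numbered 4, 2, 1, 0 and 3. Over all genes tested, 16.2% were called lower and 19.7% higher. *Ncl*, the nucleolar protein nucleolin, had 654, 784, 852, 738 and 696 CPM in WT and 494, 389, 303, 358 and 425 CPM in null libraries, an even separation of -0.92 (SE 0.10, adjusted p = 1.22e-06). *Rpl34* fell from 462 ± 53.2 to 292 ± 37.2 CPM, *Mrps27* from 53.3 ± 4.77 to 28.9 ± 0.94 CPM and *Ndufa5*, a complex I subunit, from 80.8 ± 6.83 to 51.2 ± 5.71 CPM. Of these genes the 30-library fit called 4, 10, 5, 0 and 7 lower.

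Replication-dependent histone genes, whose transcripts lack a poly(A) tail and are present in S phase, were lower in 41 of 62 tested (median -0.46) and higher in 1. The share called lower was 66.1%, against 16.2% of all genes tested. *Hist1h4c* had 1141, 1127, 975, 952 and 928 CPM in WT and 595, 395, 529, 468 and 303 CPM in null libraries, well apart at -1.16 (SE 0.13, adjusted p = 1.19e-06). The exception was *Hist2h2be* (34 ± 2.54 to 51.1 ± 6.28 CPM). In the 30-library fit 19 histone genes were called lower and *Hist2h2be* was not called. Histone genes have near-identical copies, so counts can be split among them.

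Most of these groups hold short transcripts, and the difference moved with transcript length. Protein-coding genes with up to 500 exon bases had a median log2 difference of -0.48 (41 tested, 25 lower, 2 higher), those of 501 to 1000 bases -0.23, those of 1001 to 2000 bases -0.06, and those of 3001 to 5000 bases 0.02. Small non-coding RNAs went the same way, with 24 of 34 snRNA genes lower and 0 higher (median -1.30) and 70 of 108 snoRNA genes lower and 2 higher (median -1.01). Long non-coding RNAs had medians above 0, at 0.31 for 306 lincRNAs and 0.26 for 238 antisense genes.

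Small non-coding RNAs made up 3.4% to 4.94% of the counts in WT libraries and 0.943% to 2.02% in null libraries, with no overlap. Histone genes had a median of 536 exon bases, cytosolic ribosomal protein genes 1781, respiratory chain genes 1718, mitochondrial ribosomal protein genes 2394 and ribosome biogenesis factors 4051, a length at which coding genes as a whole did not lie below 0. Taken relative to the median of coding genes in the same length class, the medians were -0.13 for histones, -0.18 for cytosolic ribosomal proteins, -0.16 for mitochondrial ribosomal proteins, -0.22 for biogenesis factors and -0.14 for the respiratory chain. These class medians include the listed genes themselves. The 2 shortest classes held 41 and 209 genes, against 62 histone genes tested, so the histone value is partly a comparison of histones with themselves. It cannot show how much of their difference goes with length. The share of the length trend in each result was not tested. Relative to its length classes the ATF4 pathway was at -0.36, and the interferon effectors were at 2.44.

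**Figure D3:**
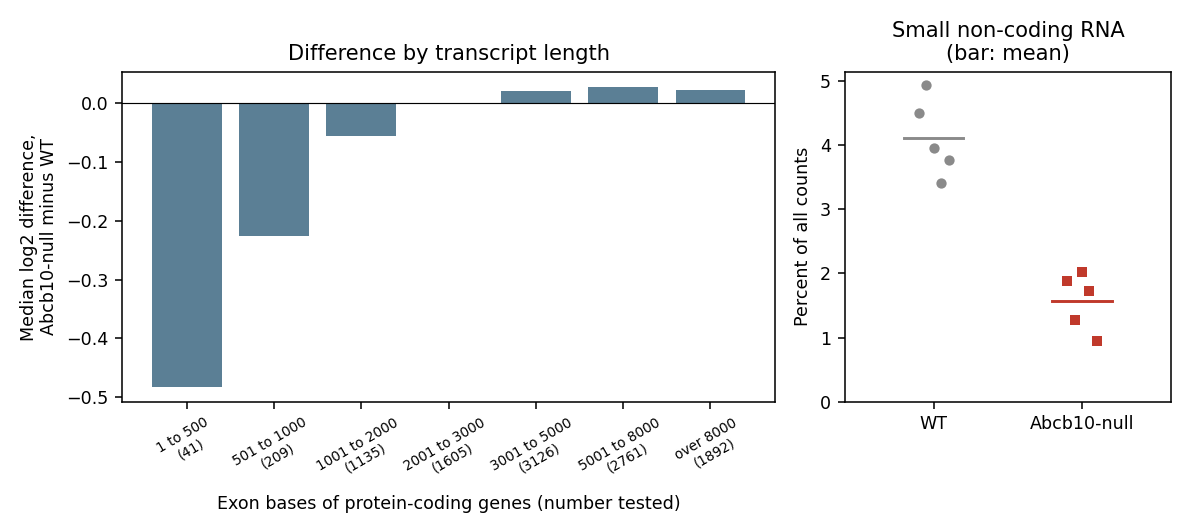
Left: median log2 difference of Abcb10-null against WT at day 0 (y axis) for protein-coding genes in 7 classes of exon length (x axis), from -0.48 for the shortest to 0.02 for the longest. Right: percent of all counts in small non-coding RNA genes (y axis) in each WT (grey) and Abcb10-null (red) library, all null libraries lying below all WT libraries.

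Transcripts of the mitochondrial genome differed among themselves. Of 7 protein-coding ones tested, 6 were lower (4 in the 30-library fit), where 16.2% of all genes tested were. *mt-Cytb* had 402, 550, 563, 437 and 488 CPM in WT and 172, 104, 130, 119 and 72.9 CPM in null libraries, without overlap (-2.03, SE 0.16, adjusted p = 1e-08), and *mt-Nd2* (133 ± 16.9 to 35.9 ± 12.5 CPM) and *mt-Nd4* (42.7 ± 7.3 to 16.7 ± 3.54 CPM) followed. *mt-Co1*, the most abundant, was 6266 ± 1006 and 5996 ± 750 CPM (adjusted p = 0.656). The mitochondrial leucyl-tRNA synthetase gene *Lars2* was the one large rise among mitochondrial synthetases, and it rested on few libraries: 8.87, 14.4, 12.2, 11.6 and 25.4 CPM in WT against 13.2, 10.2, 292, 491 and 34.8 CPM in null libraries. Without null libraries 3 and 4 its difference was 0.42 (adjusted p = 0.368).

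Genes of glucose use and of sterol synthesis were higher in part. Of 26 glycolysis genes 12 rose and 1 fell (median 0.19), where 19.7% of all genes tested rose and 16.2% fell. *Pkm*, pyruvate kinase, had 2946, 2165, 2180, 1945 and 2033 CPM in WT and 2822, 3481, 4129, 3447 and 3835 CPM in null libraries, where WT library 1 stood above null library 1 (0.65, adjusted p = 9.24e-05). *Pgk1* rose from 775 ± 82.1 to 1061 ± 44.6 CPM and *Pdk1*, a kinase that inhibits pyruvate dehydrogenase, from 149 ± 7.18 to 211 ± 10.7 CPM. The brain aldolase *Aldoc* rose from 1.3 ± 0.08 to 3.15 ± 0.48 CPM, while the glucose transporter *Slc2a1* fell by 0.30. Of 34 genes of sterol and fatty acid synthesis 12 rose and 0 fell (median 0.16), with *Insig1* (208 ± 14.6 to 330 ± 20 CPM) and *Hmgcs1* (68 ± 9.05 to 92.2 ± 4.52 CPM) among them. DESeq2 called 2 of these genes lower and 10 higher. Only 3 glycolysis and 4 sterol genes were called higher in the 30-library fit, and *Pgk1*, *Pdk1* and *Slc2a1* were not called. The cytosolic isocitrate dehydrogenase *Idh1* rose from 119 ± 6.46 to 176 ± 7.86 CPM.

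Chaperones of the endoplasmic reticulum were lower in 13 of 26 tested (50%, against 16.2% of all genes tested) and higher in 1 (median -0.23). *Hspa5*, the chaperone BiP, fell from 4005 ± 117 to 3138 ± 150 CPM, *Creld2* from 164 ± 10.4 to 109 ± 2.98 CPM and *Manf* from 206 ± 11.8 to 138 ± 8.51 CPM. Of the chaperones 4 were called lower in the 30-library fit, *Hspa5* not among them. Glutathione and antioxidant genes split into 10 higher and 9 lower of 36, 52.8% called against 36.0% of all genes tested. *Oplah*, which opens 5-oxoproline to glutamate, was up by 0.82 and the microsomal transferase *Mgst3* down by 0.90.

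Cell division genes showed no common direction. Of 49 genes of DNA replication 6 rose and 11 fell, and of 40 of mitosis 9 rose and 7 fell. The shares called, 34.7% and 40%, are close to the 36.0% of all genes tested. The 30-library fit left 0 and 1 of replication and 4 and 1 of mitosis. *Cdkn1b*, the inhibitor p27, stood out: 58.4, 53.1, 52, 70.2 and 51.3 CPM in WT and 114, 117, 129, 124 and 125 CPM in null libraries, a clean separation of 1.1 (SE 0.08, adjusted p = 5.73e-09). *Cdc25a* (-0.46) and *Ccnd2* (-0.41), which push cells through G1, fell. Targets of p53 were mixed, 6 higher and 7 lower of 25 (2 and 1 in the 30-library fit). These were 24% and 28%, against 19.7% and 16.2% of all genes tested. *Trp53inp1* rose from 4.06 ± 1.54 to 18.8 ± 2.94 CPM, while *Mdm2* (-0.40) and *Trp53* (-0.39) fell, both calls lost in the 30-library fit.

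Of 19 Bcl2 family and caspase genes 8 rose and 1 fell, 47.4% called against 36.0% of all genes tested. The proapoptotic *Bmf* rose from 0.44 ± 0.23 to 1.77 ± 0.60 CPM and *Bax* fell by 0.42. Of 28 autophagy and mitophagy genes 10 rose and 2 fell, 42.9% called. *Pink1*, the kinase that marks damaged mitochondria, was at 28.6 ± 1.75 and 50.2 ± 4.58 CPM and *Bnip3* at 216 ± 32.7 and 318 ± 22.7 CPM. *Bax* and *Bnip3* were not called in the 30-library fit.

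Some genes of other blood lineages were higher. Of 46 leukocyte adhesion and signalling genes tested (54 listed) 23 rose and 3 fell (median 0.32). Among 15 myeloid and mast cell genes tested (33 listed) 11 rose and 1 fell (median 1.00). Over all genes tested, 19.7% were called higher and 16.2% lower. Members near the floor in WT could pass the count filter only through the null group and could only be seen to rise. Their number was not taken. The rises in the 2 lists numbered 11 and 6 in the 30-library fit. *Gzmb*, the granzyme of cytotoxic and mast cells, had 0.49, 0, 0.534, 0.0704 and 0.901 CPM in WT and 9.81, 9.14, 7.79, 9.45 and 6.86 CPM in null libraries. All null libraries were well above all WT libraries (4.33, SE 0.34, adjusted p = 1.38e-08). *Gzmb* passed the count filter through the null group, so only a rise could be seen for it. The tetraspanin *Cd53* of leukocytes rose from 10.8 ± 3.18 to 45.6 ± 9.31 CPM, the integrin *Itga4* from 57.8 ± 5.94 to 109 ± 8.1 CPM, the Fc receptor *Fcgr3* from 9.79 ± 1.59 to 27.2 ± 2.54 CPM and *Hdc*, which makes histamine, from 89.0 ± 2.90 to 178 ± 13 CPM.

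The mast cell and basophil markers summed to 87.1 to 93.7 CPM in WT and 167 to 198 CPM in null libraries, nearly all from *Hdc*. All 4 of the 8 listed that could be tested rose, among them *Fcer1a* (0.18 ± 0.17 to 2.29 ± 1.01 CPM), and *Tpsab1* and *Mcpt8* had no count in any library. *Fcer1a* lay near the floor in WT and passed the count filter through the null group, so only a rise could be seen for it. Of the 4 markers, 1 could be tested at day 2 and 1 at day 5. Macrophage markers summed to 7.63 to 9.01 and 10.4 to 15.1 CPM, with *C1qa* and *Marco* at 0. Neutrophil markers summed to 13.1 to 17 and 10.8 to 13.1 CPM with *S100a8*, *S100a9*, *Ly6g* and *Ngp* at 0, and B cell markers to at most 4.33 CPM. Megakaryocyte markers summed to 331 to 437 and 382 to 420 CPM, T cell markers to 22.5 to 30.7 and 20.7 to 25 CPM, and fibroblast markers to 14.7 to 22.8 and 13.4 to 17.2 CPM, with the groups overlapping in all 3. The erythroid markers summed to 2521 to 2768 and 2583 to 2865 CPM, of which globin genes, *Alas2* and *Tfrc* were called. The part of other cell types in these results was not tested.

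Among genes outside blood, 8 of 21 matrix genes rose and 3 fell (0 and 1 in the 30-library fit), with *Lama3*, a laminin chain, at 0.51 ± 0.21 and 2.45 ± 0.68 CPM. Of 25 genes of Notch, Wnt and TGF-beta signalling 8 rose and 0 fell, 32% called against 36.0% of all genes tested. The rises included *Ctnnb1*, beta catenin (683 ± 37.4 to 930 ± 18.4 CPM). The chromatin remodeller *Smarca4* fell from 275 ± 34 to 186 ± 22 CPM, one of 7 of 37 chromatin regulators that fell against 3 that rose. In that list 27% were called, below the share of all genes tested. Neither *Lama3* nor *Smarca4* was called in the 30-library fit. The share called over the lists is drawn beside the 19.7% and 16.2% of all genes.

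**Figure D4:**
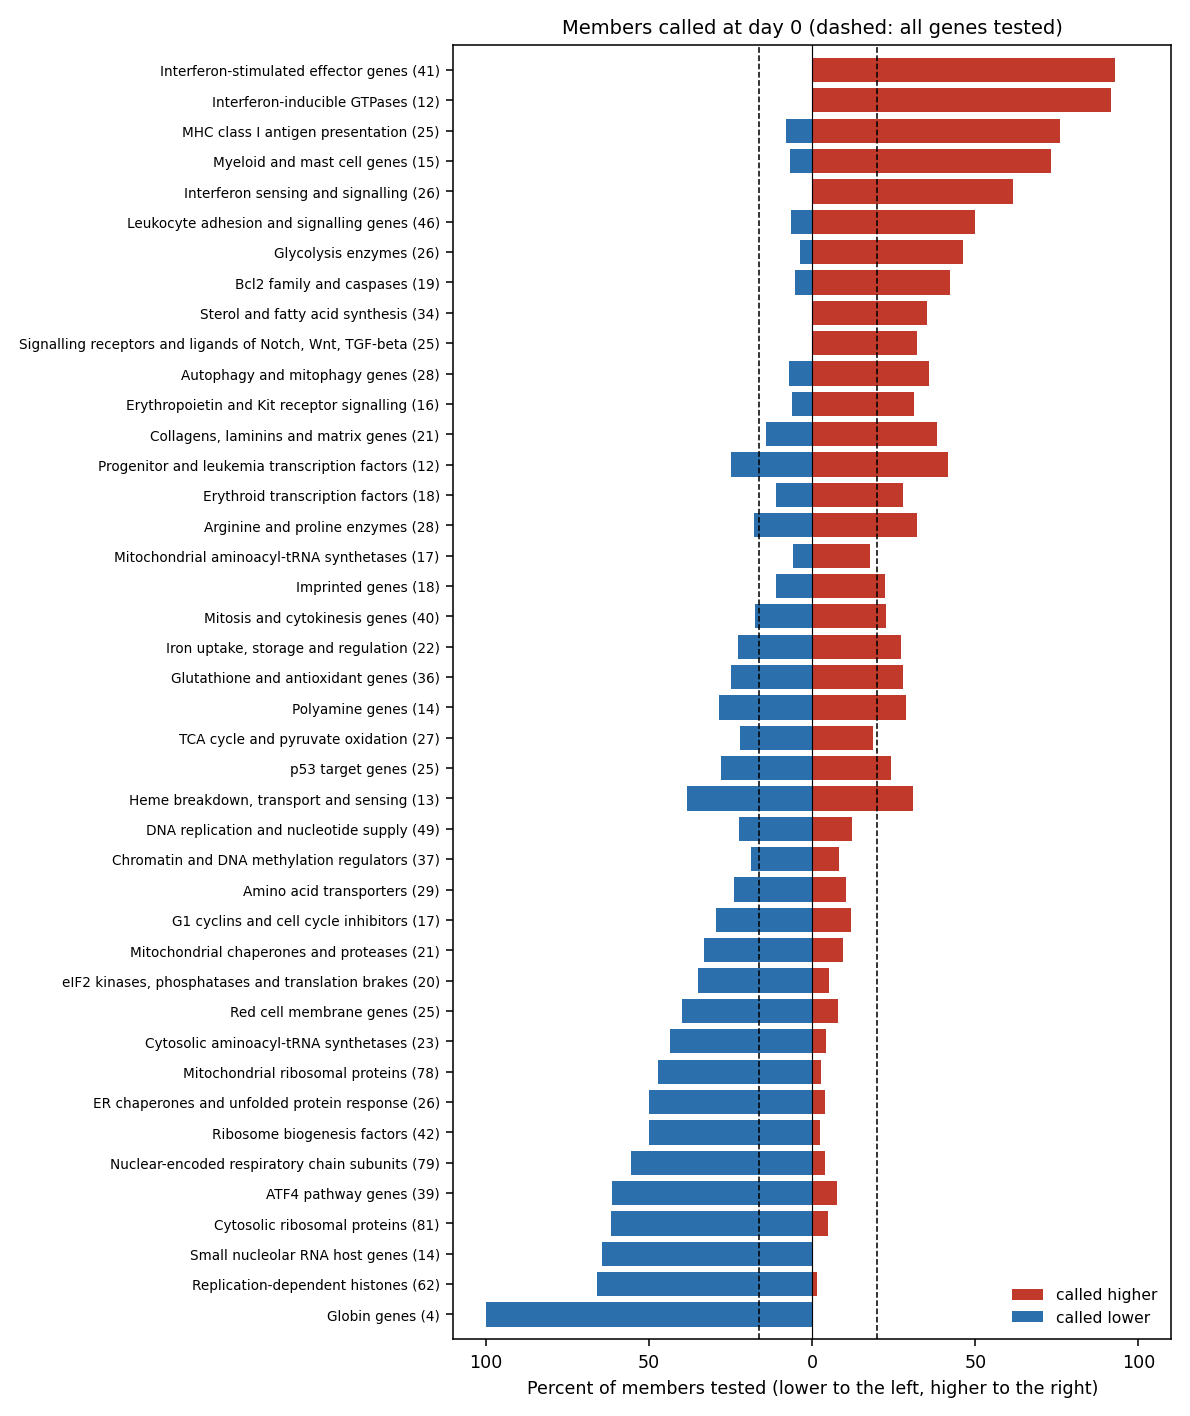
Percent of the tested members of 42 gene lists called higher (red, to the right) or lower (blue, to the left) in Abcb10-null cells at day 0, with the number tested in brackets. Dashed lines mark the same shares over all 12912 genes, 19.7% higher and 16.2% lower; interferon effectors and inducible GTPases lie farthest to the right and globin genes farthest to the left.

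At day 2 31.8% and at day 5 37.6% of all genes tested were called. Of the 4642 genes called at day 0, 1200 (25.9%) were called in the same direction at day 2 and 308 in the opposite one, and at day 5 these were 1175 (25.3%) and 738. Of the 4642, 4453 were tested at day 2 and 4367 at day 5, and the shares called again, in either direction, were not tested against those of all genes. The genes called in the same direction made up 28.9% of the 4151 genes called at day 2 and 24.6% of the 4769 called at day 5. No library is shared by the comparisons of different days. A test of the difference itself, the interaction of genotype and day, called 3188 of 13980 genes (22.8%) for day 0 against day 2 and 4417 of 14020 (31.5%) for day 0 against day 5.

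By that test the interferon genes differed less after DMSO. *Irf7* was higher by 4.77 at day 0, 0.92 at day 2 and -0.11 at day 5, and *Rsad2* by 4.88, 2.38 and 0.79. The day 0 difference of *Irf7* was larger than that at day 2 by 3.81 and than that at day 5 by 4.86, both called by the interaction. Of the 41 effectors, 26 differed between days 0 and 2 and 32 between days 0 and 5, and the median was 2.41 at day 0, 0.90 over the 38 tested at day 2 and 0.10 over the 37 tested at day 5. The ATF4 pathway turned round: from a median of -0.37 without DMSO to 1.09 on day 2 and 1.84 on day 5, and 35 and 39 of its 39 genes were called by the interaction. *Atf4* went from -0.48 to 1.00 and 1.44, *Ddit3* from -0.38 to 2.75 and 1.77, and *Chac1* from -0.29 to 3.23 and 4.27.

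*Abcb10* itself differed more with time, -0.68, -1.54 and -2.54. *Hbb-bs* was lower at each day (-2.41, -2.18 and -2.35), and *Alas2* too (-1.35, -1.85 and -1.37), and the interaction called neither gene for either day. *Klf1*, level at day 0, was at -0.82 and -1.49, and *Tfrc* went from 0.25 to -0.88 and -3.09. Cytosolic ribosomal proteins went from -0.22 to 0.17 and 0.53, and 71 of 81 differed between days 0 and 5. Myeloid and mast cell genes had a median of 0.52 over 8 genes tested at day 2, with 2 called higher and 0 lower. At day 5 the median was 1.24 over 10 genes, with 7 called higher and 0 lower. The genes tested were not the same on each day, so these medians do not show that a difference lasted.

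**Figure D5:**
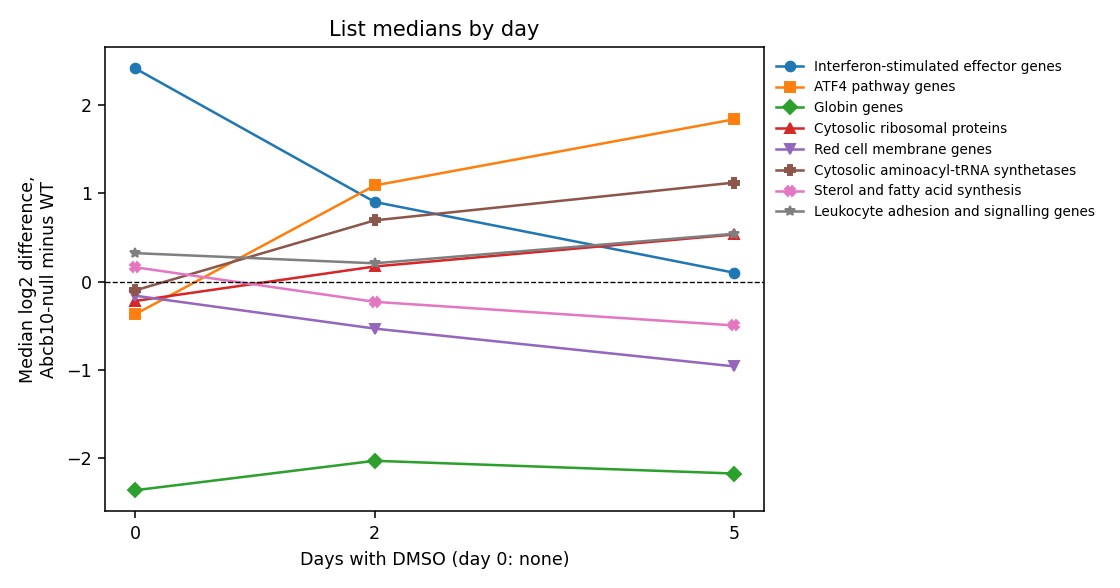
Median log2 difference of Abcb10-null against WT (y axis) at days 0, 2 and 5 (x axis) for 8 gene lists, each line a list and the dashed line at 0. Interferon effectors fall from 2.41 to 0.10, the ATF4 pathway rises from -0.37 to 1.84, and globin genes stay near -2.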

How the data were processed

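Total RNA from 30 MEL cell cultures, 5 per genotype and day, was depleted of ribosomal and globin RNA and sequenced as paired reads of 51 cycles. Per the submitters' processing notes and the study's methods, the authors aligned reads to GRCm38 with STAR 2.6.1b and counted them per gene with featureCounts 1.6.3, and the deposited values are these raw counts. The strand setting of the counting is not given in the sources used here, so overlapping genes on opposite strands may share reads. Gene names and exon lengths came from a GRCm38 annotation, in which 37 identifiers (0.0116% of counts) had no match. Promoters came from RefSeq's table for GRCm38.p6.

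The 10 day 0 libraries held 14364618 to 20157768 counts. They were fitted with edgeR 4.0.16 (R 4.3.3) by TMM scaling, filterByExpr and the quasi-likelihood test without a block, and p-values were adjusted over the 12912 genes tested by the Benjamini-Hochberg method. All adjusted p-values in the text are of this kind. CPM used the scaled library sizes. The difference between days was tested as the interaction of genotype and day over 20 libraries. Alternatives were DESeq2 1.42.0, its size factors, other count filters, a replicate block, one fit of all 30 libraries and leaving out each library. Code was tested on simulated data.

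Named genes were the 15 largest rises and falls among called protein-coding genes of at least 1 CPM whose groups did not overlap, the 5 most abundant called past 0.58 in each direction, up to 8 near on-off genes a direction, called neighbours of *Abcb10*, up to 4 called members a direction in each gene list, and members that define a list. *Abcb8*, *Abcb6*, *Taf5l*, *Urb2* and some list members were chosen after their values were seen. The comparison, its gene lists and its members were chosen with earlier results of these data known. Replicates of a group differed by more than counting noise (chi-square per degree of freedom of at least 6.81), and counting limits cover counting error only. Some genes are not reported here.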

Additional observations from a re-analysis of the deposited data

Results flagged for a closer look

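In 23 of the 324 groups of 5 libraries examined over the genes named here, 1 library lay far from the other 4 by Dixon's criterion, which chance meets in about 1 in 20. WT library 4 stood above the rest of its group in *Trim30a* (6.76 CPM), *Tmem56* (11.4), *Ptbp3* (607) and *Sh3bgrl* (642), and below it in *Rpl34* (368). WT library 2 was high in *Usp18* (4.59 CPM), *Tap1* (31.7) and *Creld2* (182) and low in *Pdk1* (136). WT library 1 was high in *Pkm* (2946 CPM) and *Trib3* (70.1), and WT library 5 in *Myc* (45.9).

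Among Abcb10-null libraries, library 5 was high in *Tmem56* (2.63 CPM) and low in *4930405D01Rik* (0.536), *Gata1* (221) and *Spi1* (61.1). Library 3 was high in *Epor* (256 CPM) and *Rpl13* (919) and low in *Jak2* (335) and *Slc7a5* (18.2). Library 4 was high in *Hspa8* (705 CPM), library 2 in *Pink1* (58.1), and library 1 low in *Insig1* (295).

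The difference between genotypes itself differed between days 0 and 2 in 3188 genes and between days 0 and 5 in 4417, by the interaction in edgeR's quasi-likelihood test. The values that follow are the day 0 log2 difference minus the later one, for days 2 and 5 in that order. Interferon genes had values above 0: *Irf7* 3.81 and 4.86, *Rsad2* 2.45 and 4.07, *Usp18* 1.80 and 3.02, and *Isg15* 2.33 for day 5 alone. So had *Abcb10* (0.80 and 1.83), *Klf1* (0.79 and 1.49), *Tfrc* (1.07 and 3.32), *Gata1* (0.66, day 5) and *Pkm* (0.83, day 2).

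Genes of the ATF4 pathway had values below 0: *Atf4* -1.52 and -1.92, *Ddit3* -3.18 and -2.15, *Chac1* -3.57 and -4.56, *Slc7a1* -0.68 and -2.46, and *Slc7a11* -2.87 and -3.40. *Rars*, the arginyl-tRNA synthetase gene, had -1.68 and -2.10. *Hmox1* had -0.89 and -3.10, and the transcription factor genes *Myc* and *Spi1* had -0.81 and -1.25 and -0.87 and -1.33.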

How the results depend on the processing

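The 4642 genes called at day 0 became 1584 with all 30 libraries in one fit, and the 1498 past 0.58 became 937. With protein-coding genes of over 1000 exon bases only, an alternative chosen after seeing the data, fewer genes were tested and 987 passed 0.58. The other counts stayed within 1.5 times: 4941 and 1527 with DESeq2, 4691 and 1497 with its size factors, 4840 and 1860 with all genes of at least 1 count, and 4332 and 1155 with at least 10 counts in every library. Leaving out 1 library gave 4004 to 4779 genes, and 1377 to 1602 past 0.58. In fits without 1 library, the genes whose difference changed between days 0 and 2 numbered 2366 to 4760, and between days 0 and 5 numbered 3855 to 5228. One fit of all 30 libraries gave 2637 and 3698, and all genes of at least 1 count gave 3376 and 3475. None of the 161 called genes named in the text changed direction in any of these fits, but genes that were not called and lie near 0, such as *Gata1* (-0.06 to 0.05), and list medians near 0, such as the matrix genes (-0.12 to 0.48) and the polyamine genes (-0.01 to 0.08), crossed it. Of these 161, 155 kept their call without each library and 117 in the fit of all 30, while 44 lost it there. That fit adds the spread of the treated cultures to the error.

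WT and Abcb10-null libraries of the same number did not deviate together (correlations from -0.212 to 0.047, 0 of 5 pairs above 0.1), and no WT library correlated best with the null library of its own number. No shared deviation by number was seen, which cannot show whether cultures of the same number were grown or prepared together. With the replicate block 4220 genes were called at day 0, 1421 of them past 0.58, and the tests between days called 3079 and 4241.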
